A study of Mus musculus with 6 samples.

Results

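The genes described here encode core parts and regulators of the pre-mRNA splicing machinery, in 4 classes that were taken by gene symbol: Snrp genes for proteins of the small nuclear ribonucleoproteins (snRNPs), Sf3a and Sf3b genes, Srsf genes for SR proteins, and Hnrnp genes for heterogeneous nuclear ribonucleoproteins (hnRNPs). Of 12393 genes measured, 44 had a symbol starting with Snrp (8), Sf3a or Sf3b (9), Srsf (9) or Hnrnp (18). RefSeq holds 53 protein-coding genes with such symbols, and 9 of these were not analysed, so the classes are incomplete. The RNA came from cells labelled as regulatory T cells (Treg), sorted as CD4+YFP+ from mice on a C57BL/6 background, and was hybridised to 6 arrays. Foxp3, the defining gene of Treg, stood at 1.59% of the control level in the USP7-titled arrays, so this gene does not bear out the Treg label there. The other Treg markers Il2ra, Ctla4, Ikzf2 and Tnfrsf18 stood at 77.8% to 92.3% of the control level. The USP7-titled group has 3 arrays. Its genotype field reads fl-HDAC11/Foxp3cre, whereas the series title and design text name Usp7 (fl-Usp7/Foxp3cre), and this conflict was left as it stands. The control group has 3 arrays with the genotype Foxp3cre. Both groups thus carry Foxp3cre, which drives Cre recombinase from the Foxp3 gene, so that a floxed allele would be deleted only in cells that use that gene. No source used here gives the age, the sex or the number of animals behind each sample. The samples are called independent but not said to be separate animals, and p-values then cover only the spread between these samples.

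Splicing removes introns in 2 steps carried out by the spliceosome, a machine assembled anew on each intron from snRNPs. The U1 snRNP recognises the start of the intron and the U2 snRNP, with the SF3A and SF3B complexes, recognises the branch site near its end. A ring of Sm proteins forms the core of most snRNPs. SR proteins bind exons and usually promote their inclusion, hnRNPs often oppose it, and the balance of both sets many alternative exons. In T cells a well known case is CD45 (Ptprc), whose variable exons are skipped under the control of hnRNP L and hnRNP LL after activation. Many SR and hnRNP genes limit their own output through exons that make the transcript unstable, so a change of one of these transcripts need not equal a change of its protein. The arrays report transcript level and not splicing itself.

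Values are log2 expression of a probe set, the group of short probes that reports 1 transcript or set of transcripts, and each gene is read by the probe set that is brightest over all 6 arrays. A change is the USP7-titled mean minus the control mean, so 1 is a doubling. Each change comes with its standard error (SE) and the adjusted p of limma over all 12393 genes, and "rose" or "fell" is used below an adjusted p of 0.05. Several other differences run along with the groups. Usp7 read 10.54, 10.69 and 10.76 in USP7-titled arrays and 11.69, 11.73 and 11.61 in controls (change -1.01, adjusted p = 1.32e-06), and the dim Hdac11 changed by -0.58. Of 9 T cell and Treg markers 6 fell and 0 rose, with a mean level of 11.76 to 11.80 in USP7-titled arrays and 12.54 to 12.59 in controls. Among them Cd4 changed by 0.01 and Cd3e by -0.11, whereas Foxp3, which defines Treg, read 6.85, 7.29 and 6.87 in USP7-titled arrays against 12.82, 13.13 and 12.99 in controls. Foxp3 (-5.98, by its only probe set) made up most of the gap in mean level, and the median change of these markers was -0.12. The Treg markers Il2ra, Ctla4, Ikzf2 and Tnfrsf18 changed by -0.17, -0.36, -0.21 and -0.12. In USP7-titled arrays 8 of the 9 markers stayed above the median gene. The female-specific Xist changed by -7.20 and the Y-linked Eif2s3y by 5.65, so group and sex cannot be told apart. All 25 measured G2/M and mitosis genes rose, and their mean level was 10.11 to 10.20 in USP7-titled arrays and 7.44 to 7.54 in controls. Myeloid markers rose in 18 of 23 genes, with a mean level of 8.03 to 8.21 in USP7-titled arrays and 6.75 to 6.94 in controls. The mean level of CD8 T and NK markers was 7.79 to 7.88 in USP7-titled arrays and 7.03 to 7.14 in controls (5 of 13 rose, 1 fell). Gzmb (3.29), Gzma (3.21), Nkg7 (2.76) and Ccl5 (1.31) made up most of that gap. The list's median change was 0.02, Prf1 fell (-0.45, adjusted p = 0.00246), and Cd8a and Cd8b1 changed by 0.02 and -0.23 and did not pass. The mean level of B cell markers was 7.93 to 8.11 in USP7-titled arrays and 7.78 to 7.85 in controls (5 of 14 rose, 1 fell). Their median change was 0.09, with 7 genes above 0 and 7 below. The mean level of dendritic cell markers was 7.05 to 7.09 in USP7-titled arrays and 6.83 to 6.87 in controls (5 of 10 rose, 1 fell), with a median change of 0.33. Beside the counts of all these lists, 17.0% of all 12393 genes rose and 15.9% fell. As a measure of RNA quality, the 3′ Gapdh probe set exceeded the 5′ one by 0.907 to 0.986 in USP7-titled arrays and 0.989 to 1.23 in controls, while for actin the difference was -0.18 to -0.155 in USP7-titled arrays and -0.286 to -0.151 in controls, which overlap. The part of cell cycling, other cells, sex and RNA quality in the results below was not tested, and in bulk RNA a change in the share of cells and a change of RNA per cell cannot be told apart.

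Across the 44 splicing genes, 12 rose, 11 fell and 21 did not pass the threshold. The background was high: 17.0% of all genes rose and 15.9% fell. Among 4604 bright genes (a mean of 9 or more, which 43 of the 44 members reach) 29.6% rose and 23.0% fell. This set is still dimmer than the members, with a median level of 10.19 against 11.17. With 27.3% rising and 25% falling, the splicing genes as a whole lay near the background of bright genes. What differed was the direction by class. Of 8 Snrp genes 5 rose and 0 fell, and of 9 Sf3a and Sf3b genes 4 rose and 1 fell. Of 9 Srsf genes 1 rose and 4 fell, and of 18 Hnrnp genes 2 rose and 6 fell. The median changes were 0.26 for Snrp, 0.15 for Sf3a and Sf3b, 0.06 for Srsf and -0.04 for Hnrnp, against -0.05 for all genes and 0.04 for genes with a mean of 9 or more. These counts and medians describe the classes, and the difference between classes was not tested. The changes were small: Srsf5 alone reached 2-fold. The groups did not overlap in 28 members (63.6%), against 45.6% of all genes and 63.2% of genes with a mean of 9 or more, so the members stood at the background of bright genes.

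The balance depended on how the arrays were scaled. When each array was set to its 18 hybridization spike probe sets instead of the deposited scale, the median of all genes moved to 0.11, and 22 members rose while 6 fell. Over all 12393 genes 2968 were then higher and 944 lower. Rises thus made up 75.9% of the calls of all genes and 78.6% of those of the members, against 51.5% and 52.2% on the deposited scale. In that scaling Snrp had 6 members higher and 0 lower, Sf3a and Sf3b 7 higher and 1 lower, Srsf 3 higher and 2 lower, and Hnrnp 6 higher and 3 lower. The medians were then 0.41 for Snrp, 0.31 for Sf3a and Sf3b, 0.22 for Srsf and 0.12 for Hnrnp. This scaling adds 1 constant to each array, so it cannot change the order of the classes. With quantile normalization the Srsf class had 0 higher and 4 lower. The members still lower under spike scaling were Srsf5, Srsf6, Sf3b1, Hnrnph1, Hnrnph3 and Hnrnpdl.

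**Figure D1:**
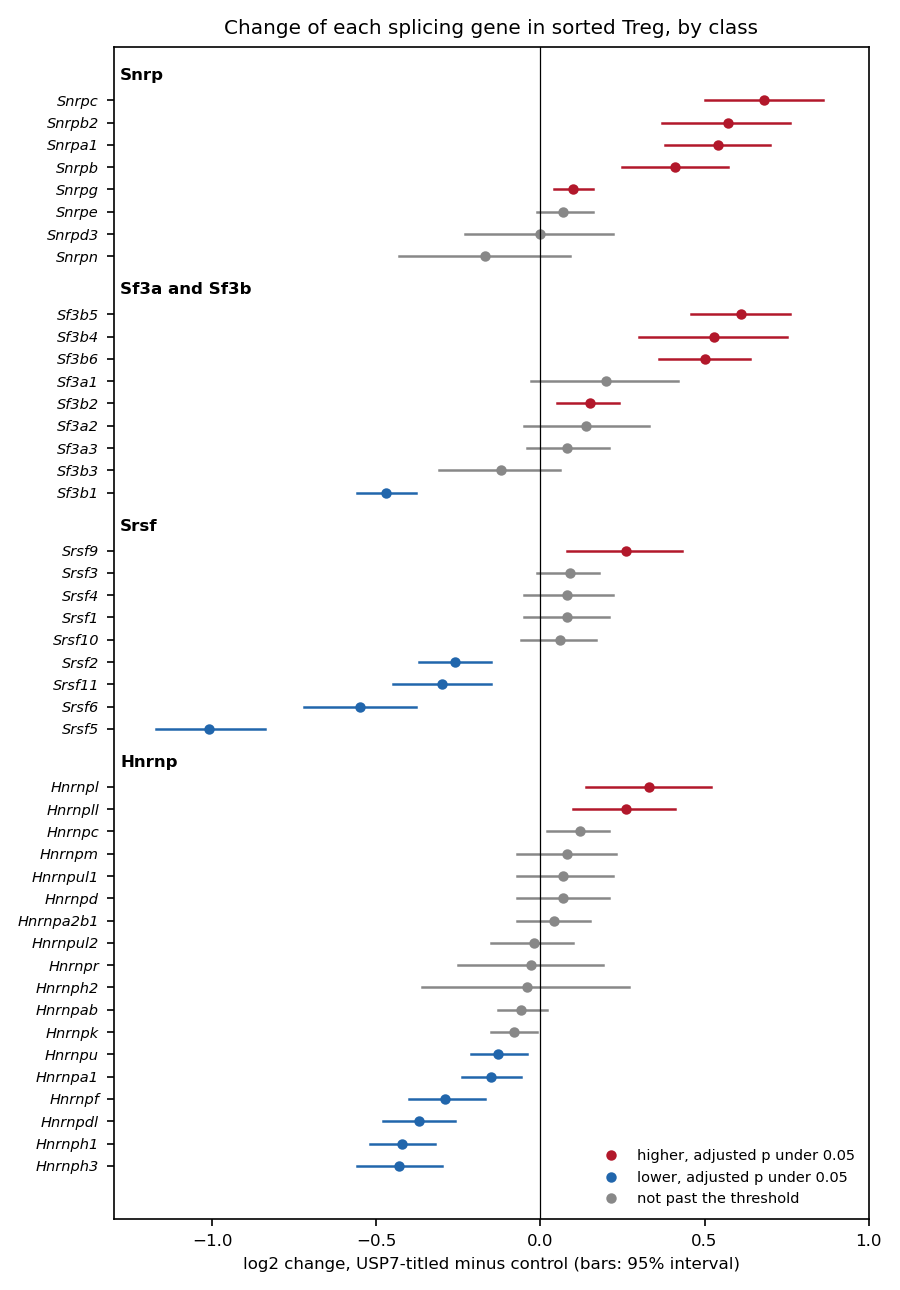
Each of the 44 splicing genes by class, with the log2 change of USP7-titled against control arrays on the x axis; points are estimates and bars their 95% intervals, coloured by whether the adjusted p of limma was under 0.05. Snrpc, at 0.68, lies furthest to the right, and Srsf5, at -1.01, furthest to the left.

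Promoter sequence gave a feature that the choice of genes did not use. A window of 250 bases before to 50 after the start of the gene, from RefSeq (GRCm38.p6), was found for 39 of the 44 genes, with more than 1 start for some (55 windows). No window was found for Snrpb, Sf3b4, Sf3b5, Hnrnpll and Hnrnpul2, and all of these but Hnrnpul2 rose. CCGGAAG, the core letters bound by ETS-family factors, was searched on both strands. It was present in at least 1 window of 6 of 7 Sf3a and Sf3b genes, 4 of 7 Snrp genes, 3 of 9 Srsf genes and 2 of 16 Hnrnp genes. The share was 25.9% of 3808 other genes with a mean of 9 or more and 9.93% of all 27025 genes in the table. CCAAT, the box bound by NF-Y, showed the opposite order. It was present in 11 of 16 Hnrnp genes, 4 of 9 Srsf genes, 3 of 7 Snrp genes and 2 of 7 Sf3a and Sf3b genes, against 42.8% of the other bright genes and 41.1% of all genes. These 2 of the 6 motifs searched were picked for the text after their counts were seen. The remaining searches, also on both strands and counted over windows, found the NRF1 palindrome in 1 of 55 windows (1.82%, against 2.35% of windows of bright genes and 0.971% of all 32851 windows), the CRE letters TGACGTCA in 1 (1.82%, against 3.21% and 1.79%), TATAAA in 6 (10.9%, against 6.88% and 13.6%) and the E2F letters TTTGGCGC or TTTCCCGC in 4 (7.27%, against 3.57% and 1.56%). The overlap of different motifs was not removed. The median GC content of the members' windows was 60.3%, against 61.3% for other bright genes and 52.7% for all windows. The windows below show the ETS letters in the Snrp gene with the largest rise and in Sf3b6, their absence from Sf3b1, the Sf3b gene that fell, their presence in Srsf5, the largest fall, and the CCAAT boxes of Hnrnpl; capitals mark CCGGAAG or CCAAT on either strand. CCGGAAG was present in 5 of the 8 members that rose and had a window, 3 of 11 that fell and 7 of 20 that did not pass. The rest of the 12 members that rose had no window and are missing from these shares. The difference between the shares was not tested. The motifs are letters in a window, not shown to be bound.
Snrpc (chr17:27839837-27840136, + strand): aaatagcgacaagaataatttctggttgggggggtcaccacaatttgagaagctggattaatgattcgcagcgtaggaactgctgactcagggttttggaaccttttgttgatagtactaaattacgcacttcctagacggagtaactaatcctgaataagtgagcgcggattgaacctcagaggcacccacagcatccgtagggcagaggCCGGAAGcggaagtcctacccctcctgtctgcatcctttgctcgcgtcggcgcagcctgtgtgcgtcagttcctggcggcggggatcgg
Sf3b6 (chr12:4817358-4817657, + strand): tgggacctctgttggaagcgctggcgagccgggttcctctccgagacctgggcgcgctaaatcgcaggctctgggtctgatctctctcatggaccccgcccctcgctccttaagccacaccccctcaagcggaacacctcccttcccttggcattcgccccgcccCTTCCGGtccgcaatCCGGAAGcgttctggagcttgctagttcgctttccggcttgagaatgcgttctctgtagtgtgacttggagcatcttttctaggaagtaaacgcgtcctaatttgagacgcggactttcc
Sf3b1 (chr1:55027429-55027728, - strand): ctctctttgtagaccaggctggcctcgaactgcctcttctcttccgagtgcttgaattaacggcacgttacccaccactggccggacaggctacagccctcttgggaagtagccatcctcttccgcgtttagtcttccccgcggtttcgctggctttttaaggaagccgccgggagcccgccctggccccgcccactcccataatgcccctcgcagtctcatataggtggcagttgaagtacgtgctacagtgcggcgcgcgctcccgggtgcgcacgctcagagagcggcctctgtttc
Srsf5 (chr12:80945249-80945548, + strand): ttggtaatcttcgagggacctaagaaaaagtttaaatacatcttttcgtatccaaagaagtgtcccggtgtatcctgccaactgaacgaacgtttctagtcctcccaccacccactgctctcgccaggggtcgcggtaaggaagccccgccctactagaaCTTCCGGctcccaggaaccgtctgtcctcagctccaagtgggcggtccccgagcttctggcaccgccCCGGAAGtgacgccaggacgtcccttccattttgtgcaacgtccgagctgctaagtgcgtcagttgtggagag
Hnrnpl (chr7:28810640-28810939, + strand): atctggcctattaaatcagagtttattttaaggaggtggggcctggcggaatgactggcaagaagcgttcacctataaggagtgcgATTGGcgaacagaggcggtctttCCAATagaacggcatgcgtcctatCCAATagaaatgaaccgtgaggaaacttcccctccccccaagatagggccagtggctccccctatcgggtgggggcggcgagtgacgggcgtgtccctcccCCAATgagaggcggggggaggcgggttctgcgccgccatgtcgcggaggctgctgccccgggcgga

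The Snrp class held the most uniform rise. Snrpc encodes the U1 C protein, which steadies the pairing of U1 with the start of the intron. It read 10.46, 10.65 and 10.51 in USP7-titled arrays, against 9.85, 9.81 and 9.93 in controls. All USP7-titled values lay above all controls, and the change was 0.68 (SE 0.08, adjusted p = 8.98e-05), or 1.6-fold. Snrpb2 and Snrpa1, a pair of proteins that bind each other and the U2 RNA, moved by almost the same amount by their brightest probe sets. Snrpb2 read 10.67, 10.81 and 10.86 in USP7-titled arrays and 10.12, 10.15 and 10.37 in controls, a change of 0.57 (SE 0.09, adjusted p = 5.21e-04). Snrpa1 read 11.07, 11.12 and 11.07 in USP7-titled arrays and 10.66, 10.55 and 10.44 in controls, a change of 0.54 (SE 0.07, adjusted p = 1.87e-04). For neither gene did the groups overlap by that probe set. Other probe sets of Snrpb2 gave 0.71 and, for a dim one, 0.04 (adjusted p = 0.854), while those of Snrpa1 gave 0.55 and 0.65.

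Sm ring genes moved less. Snrpb, which encodes the SmB proteins, read 11.10, 11.00 and 10.95 in USP7-titled arrays and 10.71, 10.55 and 10.56 in controls, a change of 0.41 (SE 0.07, adjusted p = 0.00123). Snrpg, for SmG, is the brightest member of the class. It read 13.61, 13.58 and 13.64 in USP7-titled arrays and 13.49, 13.49 and 13.55 in controls, a change of 0.10 (SE 0.03, adjusted p = 0.0141). Its rise is small and near the top of the scale of the arrays, and a second probe set gave 0.25. It did not pass in eBayes without a trend (adjusted p = 0.367) and in 3 of the 6 fits that left out an array (adjusted p = 0.055 to 0.0677 in those). Snrpe, for SmE, changed by 0.07 (95% interval -0.01 to 0.16), and its groups overlapped, with 12.73, 12.78 and 12.77 in USP7-titled arrays and 12.74, 12.70 and 12.62 in controls. Snrpd3, for SmD3, changed by 0.00 by its brightest probe set (95% interval -0.23 to 0.22), while the dimmer ones are described below. The imprinted Snrpn, whose product SmN replaces SmB mainly in brain, was dim at 7.08, 7.03 and 6.99 in USP7-titled arrays and 7.30, 7.09 and 7.22 in controls. Its change of -0.17 did not pass (adjusted p = 0.3). Among the 8 Snrp genes analysed the rises therefore covered genes for U1 and U2 proteins and 2 of the Sm ring genes measured.

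Within SF3B, the complex that holds the branch site, the subunits went in opposite directions. The smaller subunits rose. Sf3b5 read 11.50, 11.35 and 11.45 in USP7-titled arrays and 10.78, 10.77 and 10.93 in controls, a change of 0.61 (SE 0.07, adjusted p = 5.29e-05), or 1.53-fold. Sf3b4, an RNA-binding subunit, read 9.63, 9.51 and 9.74 in USP7-titled arrays and 9.18, 9.12 and 9.01 in controls, a change of 0.53 (SE 0.10, adjusted p = 0.00206). Sf3b6 read 11.42, 11.36 and 11.44 in USP7-titled arrays and 10.95, 10.81 and 10.95 in controls, a change of 0.50 (SE 0.06, adjusted p = 1.17e-04). In all of these the groups were separate by the brightest probe set. A second, dim probe set gave 0.50 for Sf3b5 and 0.16 for Sf3b4 (adjusted p = 0.0257 and 0.389). The remaining small subunit, Phf5a, which the symbol rule does not take, changed by 0.42 (adjusted p = 3.99e-04).

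Sf3b1 fell. It is the large scaffold of the complex and a gene often mutated in human myelodysplastic syndromes. It read 12.36, 12.50 and 12.49 in USP7-titled arrays, against 12.93, 12.90 and 12.93 in controls, so every control lay above every USP7-titled array. The change was -0.47 (SE 0.04, 95% interval -0.56 to -0.38, adjusted p = 9.54e-06), which left 72.1% of the control level, and its other probe sets gave -0.50 and -0.55, both past the threshold. The other large subunits did not follow it. Sf3b2, the partner of Sf3b4, read 12.16, 12.11 and 12.13 in USP7-titled arrays and 12.01, 11.94 and 12.00 in controls, a change of 0.15 (SE 0.04, adjusted p = 0.0222). The call was lost in 8 of the 18 alternatives, among them quantile normalization, which gave 0.08 (adjusted p = 0.193). Sf3b3 changed by -0.12 (adjusted p = 0.298) with overlapping groups. The SF3A genes Sf3a1, Sf3a2 and Sf3a3 changed by 0.20, 0.14 and 0.08 and did not pass (adjusted p = 0.166, 0.244 and 0.284). Under spike scaling the SF3A genes passed as higher, at 0.36, 0.30 and 0.24, and Sf3b1 stayed lower at -0.31 (adjusted p = 0.00474).

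**Figure D2:**
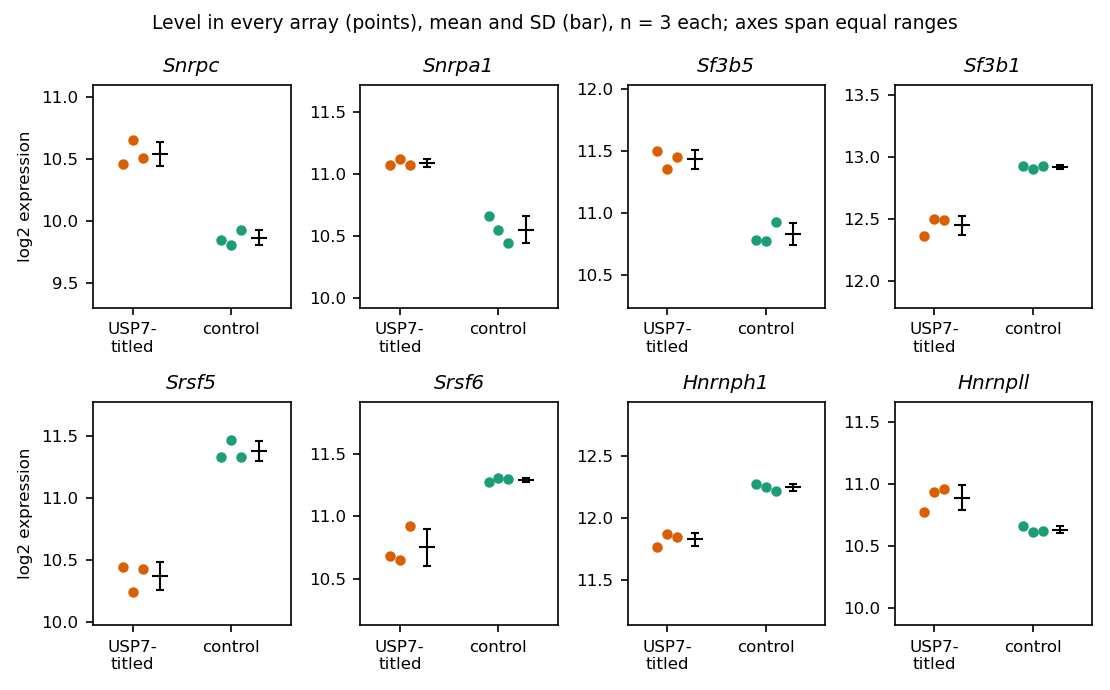
Log2 expression (y axis) of 8 splicing genes in every array, USP7-titled to the left of control; points are arrays and the bar beside them the mean and SD (n = 3 each). Each panel spans the same range of log2 units, and in none of the 8 do the groups overlap. The 8 were picked from members past the threshold, and the groups did not overlap in 63.2% of genes with a mean of 9 or more.

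Among SR proteins the falls were larger and more frequent than the rises. Srsf5, also known as SRp40, showed the largest change of all 44 genes. It read 10.44, 10.24 and 10.43 in USP7-titled arrays, against 11.33, 11.47 and 11.33 in controls. The gap between the groups was several times the spread within either, and the change was -1.01 (SE 0.08, 95% interval -1.17 to -0.84, adjusted p = 2.61e-06), or 49.8% of the control level. Only 1 probe set reports it. Srsf6, the close relative SRp55, read 10.68, 10.65 and 10.92 in USP7-titled arrays and 11.28, 11.31 and 11.30 in controls, a change of -0.55 (SE 0.08, adjusted p = 2.57e-04). Its other probe sets gave -0.37 and -0.71, both past the threshold.

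Srsf11, a more distant member that joins the SR proteins at the intron end, read 10.53, 10.61 and 10.70 in USP7-titled arrays and 10.88, 10.90 and 10.96 in controls, a change of -0.30 (SE 0.07, adjusted p = 0.00637). Srsf2, known as SC35, read 11.99, 11.91 and 11.89 in USP7-titled arrays and 12.16, 12.15 and 12.27 in controls, a change of -0.26 (SE 0.05, adjusted p = 0.00187). The falls of both were not called under spike scaling (-0.14 with adjusted p = 0.317, and -0.10 with adjusted p = 0.344), where all genes had moved up. Srsf2 was also not called with the mean of its probe sets (-0.10, adjusted p = 0.278) or without probe sets that can match several transcripts (-0.27, adjusted p = 0.1). For Srsf2 a dimmer probe set gave 0.17 (adjusted p = 0.164), and that differed from its brightest.

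Srsf9 was the only Srsf gene that rose by its brightest probe set. It read 10.60, 10.79 and 10.70 in USP7-titled arrays and 10.36, 10.42 and 10.52 in controls, a change of 0.26 (SE 0.08, adjusted p = 0.0266). The call was lost without either of 2 USP7-titled arrays or of 2 controls (adjusted p = 0.0646 to 0.105), and with quantile normalization (adjusted p = 0.0594). Srsf1, the founding SR protein, read 12.23, 12.26 and 12.24 in USP7-titled arrays and 12.02, 12.24 and 12.23 in controls, overlapping, with a change of 0.08 (95% interval -0.05 to 0.21). Srsf3, Srsf4 and Srsf10 changed by 0.09, 0.08 and 0.06, none past the threshold (adjusted p = 0.182, 0.34 and 0.442). The class median of 0.06 thus hid a split between 4 falls of 0.26 to 1.01 in size and 4 genes near 0.

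In the Hnrnp class 3 of the 6 falls were in genes for hnRNP H and F, which bind runs of G. Hnrnph3 read 10.91, 11.02 and 10.98 in USP7-titled arrays and 11.37, 11.37 and 11.46 in controls, a change of -0.43 (SE 0.06, adjusted p = 2.32e-04). Hnrnph1 read 11.77, 11.87 and 11.85 in USP7-titled arrays and 12.28, 12.25 and 12.22 in controls, a change of -0.42 (SE 0.05, adjusted p = 3.96e-05). A second, dim probe set of Hnrnph1 gave -0.19 (adjusted p = 0.305). Hnrnpf read 12.69, 12.66 and 12.57 in USP7-titled arrays and 13.01, 12.96 and 12.81 in controls, a change of -0.29 (SE 0.05, adjusted p = 0.00147). These 3 groups of values did not overlap, but Hnrnpf was not called without probe sets that can match several transcripts (-0.08, adjusted p = 0.16) or under spike scaling (-0.13, adjusted p = 0.104). Hnrnph2, the relative on the X chromosome, did not pass: it changed by -0.04 with a wide interval of -0.36 to 0.27. Its control values were 10.10, 10.20 and 10.69, against 10.11, 10.43 and 10.32 in USP7-titled arrays. A fall like that of Hnrnph1 lay outside the interval only narrowly, and one like that of Hnrnpf (-0.29) lay inside it.

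Hnrnpdl, a relative of the AU-rich element binder Hnrnpd, read 11.64, 11.60 and 11.61 in USP7-titled arrays and 12.03, 12.02 and 11.90 in controls, a change of -0.37 (SE 0.05, adjusted p = 2.08e-04). Hnrnpd itself changed by 0.07 (adjusted p = 0.461). Small falls were called for Hnrnpa1 (-0.15, adjusted p = 0.0196) and Hnrnpu, a nuclear scaffold protein (-0.13, adjusted p = 0.0326). Both have dimmer probe sets that fell further, though not every one of Hnrnpu did, as described below. Under spike scaling these brightest probe sets stood at 0.01 and 0.03 and were not called.

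Both regulators of CD45 splicing rose. Hnrnpl read 10.59, 10.59 and 10.56 in USP7-titled arrays and 10.33, 10.08 and 10.34 in controls, a change of 0.33 (SE 0.09, adjusted p = 0.0123). Hnrnpll, whose level is known to rise when T cells are activated, read 10.77, 10.93 and 10.96 in USP7-titled arrays and 10.66, 10.61 and 10.62 in controls, a change of 0.26 (SE 0.07, adjusted p = 0.018). The groups were separate for each, but the Hnrnpll call was lost without USP7-titled replicate 2, USP7-titled replicate 3 or control replicate 2 (adjusted p = 0.0657, 0.0725 and 0.0565), and a second Hnrnpll probe set gave 0.16 (adjusted p = 0.141). The remaining hnRNP genes did not pass. Hnrnpc, Hnrnpm, Hnrnpul1 and Hnrnpa2b1 changed by 0.12, 0.08, 0.07 and 0.04. Hnrnpul2, Hnrnpr, Hnrnpab and Hnrnpk changed by -0.02, -0.03, -0.06 and -0.08. Of these, the groups did not overlap for Hnrnpc and Hnrnpk (adjusted p = 0.0601 and 0.0892).

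For 30 of the 44 genes more than 1 probe set was available, and these did not always tell the same story. The change of each of the 71 other probe sets was compared with that of the brightest of its gene, in a limma fit on the difference over all 7987 such probe sets of the arrays. This comparison was chosen after the values were seen. It passed for 16 of the 71 (22.5%), in 10 genes, against a background of 9.99%. With the variance modelled in either of 2 other ways it passed for 7 of the 71, so the count is not stable. Of the 16, 9 lay below and 7 above the change of the brightest. Over all 115 probe sets of the members 27 rose and 32 fell, where 16.3% of all 20380 single-gene probe sets rose and 16.7% fell. These shares and the 9.99% above cover genes of any level, whereas nearly all members are bright. No share matched for brightness was taken, so whether the probe sets of splicing genes stood apart was not tested. Without the brightest probe set of each gene, 4 rose and 2 fell of 7 for Snrp, 5 and 2 of 13 for Sf3a and Sf3b, 2 and 3 of 19 for Srsf, and 4 and 14 of 32 for Hnrnp. These report the same RNA samples and genes as the brightest and are no independent support.

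Hnrnpa1 showed the widest spread. Its brightest probe set changed by -0.15. The second read 10.75, 10.86 and 10.72 in USP7-titled arrays and 12.12, 11.85 and 11.61 in controls, a change of -1.08 (SE 0.11), and the third read 7.87, 8.10 and 8.21 in USP7-titled arrays and 9.65, 9.63 and 9.37 in controls, a change of -1.49 (SE 0.13). Both differed from the brightest, with adjusted p of 3.07e-04 and 3.53e-04 for the difference. Hnrnpa1 has many near copies in the genome, and the brightest probe set carries the suffix of probe sets that can match several transcripts, so its level for this gene is uncertain. A single probe set of Hnrnpu gave -0.97 (difference -0.85, SE 0.12, adjusted p = 0.0023), while another gave 0.04. For Hnrnpa2b1, 1 probe set read 11.27, 11.31 and 11.24 in USP7-titled arrays and 11.90, 11.84 and 11.88 in controls, a change of -0.60 (SE 0.05), while its other 3 lay between -0.01 and 0.04.

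For 2 genes the probe sets passed in opposite directions. In Hnrnpab the brightest did not pass (-0.06), 4 rose by 0.32 to 0.42, and 1 fell by 0.55 (adjusted p = 0.00331). The probe set that fell read 9.03, 8.95 and 8.71 in USP7-titled arrays and 9.42, 9.36 and 9.55 in controls. In Srsf3 the brightest did not pass, 1 probe set rose by 0.28 (adjusted p = 0.00749) and another fell by 0.65 (adjusted p = 2.93e-04). That one read 9.32, 9.33 and 9.34 in USP7-titled arrays and 9.85, 10.07 and 10.02 in controls. The dimmer probe sets of Snrpd3 changed by -0.64 and -0.63, both past the threshold, against 0.00 for the brightest, and those of Hnrnpdl by -0.48 to -1.10. In all, 8 genes that were not called by their brightest probe set were called by another: Hnrnpa2b1, Hnrnpab, Hnrnpk, Sf3a2, Sf3a3, Snrpd3, Srsf1 and Srsf3. By contrast the probe sets of Snrpa1, Sf3b1 and Sf3b6 gave close values: 0.54 to 0.65, -0.55 to -0.47, and 0.30 to 0.50. Where each probe set lies in its transcripts was not analysed here, so a difference in level, isoform or transcript end cannot be told apart.

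**Figure D3:**
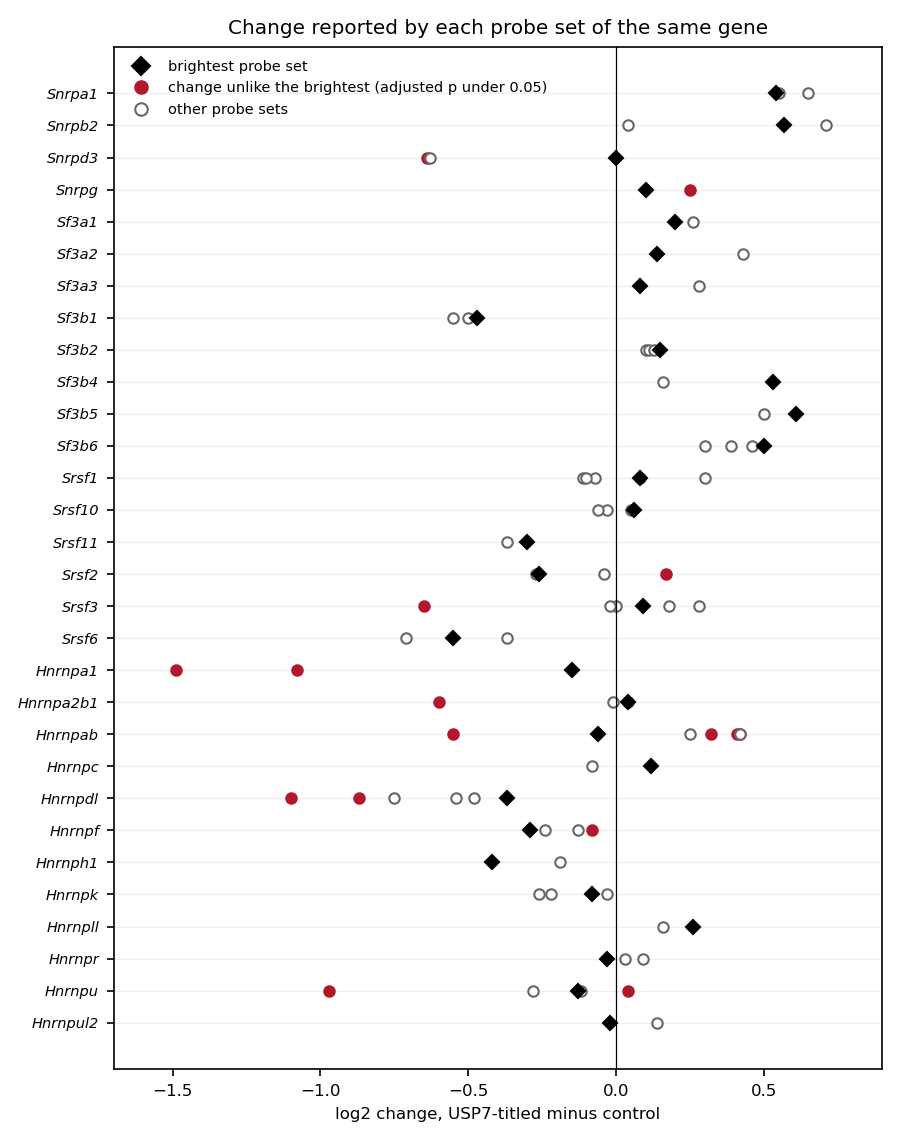
Log2 change, USP7-titled minus control (x axis), of every probe set of the 30 splicing genes with more than 1; diamonds mark the brightest probe set, filled circles those whose change differed from it (adjusted p under 0.05) and open circles the others. The probe sets of Sf3b1 lie close together at -0.55 to -0.47, whereas those of Hnrnpa1 run from -1.49 to -0.15.

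Other genes of the splicing pathway, in 6 lists that the symbol rule does not take, were compared in the same fit. Of the 123 measured, 23.6% were higher and 28.5% lower. The background was 17.0% and 15.9% of all genes, and 29.6% and 23.0% of genes with a mean of 9 or more. Among kinases that phosphorylate SR proteins 4 of 7 were lower and 0 higher, with a median of -0.53. Clk1 read 11.16, 11.27 and 11.24 in USP7-titled arrays and 12.02, 12.00 and 12.09 in controls, a change of -0.81 (SE 0.05, adjusted p = 8.21e-07). Clk4 read 10.57, 10.19 and 10.48 in USP7-titled arrays and 10.97, 11.21 and 11.61 in controls, a change of -0.85 (SE 0.15, adjusted p = 9.48e-04). Clk2 changed by -0.56 and Prpf4b by -0.53, both past the threshold, and under spike scaling the count stayed at 4 lower and 0 higher. The remaining kinases Srpk1, Clk3 and Srpk2 changed by -0.17, -0.18 and -0.20 and did not pass (adjusted p = 0.0744, 0.0863 and 0.118).

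SR-related proteins and proteins of the exon junction complex, which marks spliced exons, fell in 11 of 18 genes and rose in 2, with a median of -0.31. Pnn fell by 0.53, Son, a scaffold of nuclear speckles, by 0.52, and Rbm39 by 0.47. The exon junction protein gene Rbm8a rose by 0.32 and Tra2b by 0.21. Under spike scaling 5 of the 18 were lower and 3 higher, with a median of -0.15. Other RNA-binding regulators fell in 10 of 28 genes and rose in 5, with a median of -0.06. Rbm5 and Rbm6 fell by 0.47 each and the X-linked Rbmx by 0.45. Raly, an hnRNP outside the symbol rule, rose by 0.83, Mbnl3 by 0.60 and the RNA-stabilising Elavl1 by 0.38. In spike scaling that list turned to 7 higher and 2 lower.

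Of other snRNP and branch-site proteins 14 of 33 were higher and 5 lower, with a median of 0.08 that lay nearer to the 0.04 of bright genes than to the 0.26 of Snrp. Snrnp25, a protein of the minor spliceosome, read 10.09, 10.25 and 10.34 in USP7-titled arrays and 9.27, 9.0 and 9.15 in controls, a change of 1.08 (SE 0.10, adjusted p = 1.65e-05). Cd2bp2 and the GTPase Eftud2, both of the U5 snRNP, rose by 0.81 and 0.64, and Lsm2, Lsm3, Lsm4 and Lsm8 of the U6 ring by 0.24 to 0.52, while Lsm7 changed by -0.02 (adjusted p = 0.914). The falls included Snrnp48 (-0.61), Snrnp70 (-0.47), the U1 protein that binds SR proteins through its own RS domain, and the branch-site helicase Ddx46 (-0.42). Snrpc and Snrnp70, both of U1, thus moved in opposite directions. With quantile normalization this list had 11 higher and 7 lower with a median of 0.03, and under spike scaling 16 higher and 2 lower. The Prp19 complex and catalytic step list was mixed: 5 of its 24 genes were higher (20.8%) and 4 lower (16.7%). Both shares lay below those of bright genes (29.6% and 23.0%) and above those of all genes (17.0% and 15.9%). Bud31, Prpf38a and Cwc15 rose by 0.48, 0.46 and 0.40, and Prpf39, Prpf38b and Dhx16 fell by 0.69, 0.61 and 0.44. In the SMN complex and snRNP assembly list 3 of 13 were higher (23.1%) and 1 lower (7.69%). Its share higher lay between those of all genes and of bright genes, and its share lower was below both. The list's median level was 9.39, against 10.19 for bright genes and 8.14 for all genes. Gemin2, Strap and Clns1a rose by 0.49, 0.32 and 0.19, and Tgs1, which forms the cap of snRNAs, fell by 0.54. The Prp19 list had 4 higher and 5 lower with quantile normalization and 9 higher and 2 lower under spike scaling, and the SMN list 5 higher and 1 lower under spike scaling.

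**Figure D4:**
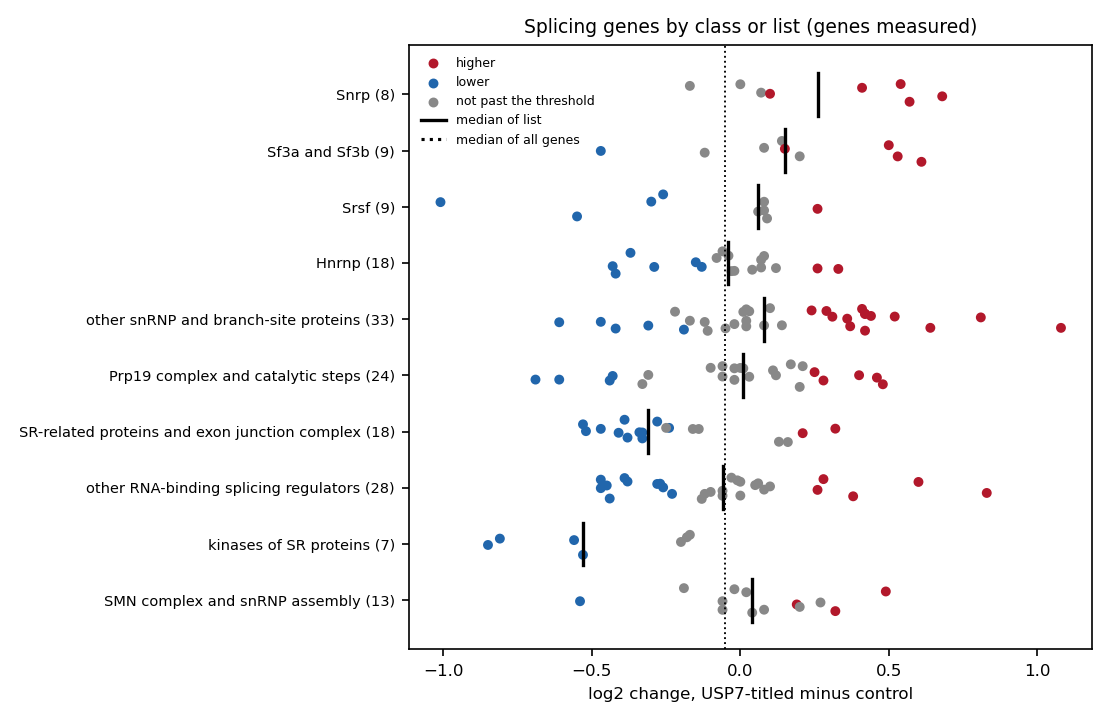
Log2 change, USP7-titled minus control (x axis), of each measured gene in the 4 classes (top rows) and in 6 lists of other splicing genes, with the number of genes in brackets; black bars are medians and the dotted line the median of all genes, -0.05. The kinases of SR proteins lie furthest to the left, with a median of -0.53, and the Snrp class furthest to the right, with a median of 0.26.

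The class median of Snrp was steady across the arrays of each group. Each array's median deviation from the control mean over the 8 Snrp genes was 0.28, 0.25 and 0.23 in USP7-titled arrays and 0.02, -0.06 and 0.02 in controls, so no single array carried the shift. For Sf3a and Sf3b it was 0.10, 0.12 and 0.19 in USP7-titled arrays and 0.02, -0.04 and 0.02 in controls. For Srsf the USP7-titled values of 0.02, 0.07 and -0.03 overlapped the control values of -0.03, 0.01 and 0.04, and for Hnrnp the USP7-titled values of 0.01, -0.07 and -0.03 overlapped those of controls, 0.03, -0.01 and -0.02. In these last 2 classes rises and falls of single genes stood on both sides of the median, as with Srsf5 and Srsf9.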

How the data were processed

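RNA from sorted CD4+YFP+ cells, labelled as Treg, was measured on 6 arrays, 3 USP7-titled and 3 control, grouped by their titles. Foxp3, by its only probe set, stood at 1.59% of the control level in USP7-titled arrays, so the label is in doubt for them. The other Treg markers Il2ra, Ctla4, Ikzf2 and Tnfrsf18 stood at 77.8% to 92.3%. The labels' protocols state that the input was 100 ng of total RNA, amplified and labelled with biotin. The authors deposited log2 values per probe set. How they were summarised and normalized is stated in no source used here. The log base was inferred from their range of 2.21 to 14.47, with array medians of 7.91 to 7.96. No scanner file or detection call was used, and no depth applies: the precision is limited by the number of arrays.

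The platform annotation gave 20380 of 22690 probe sets a single symbol, 691 several and 1555 none, with 64 array controls set aside. This left 12393 genes, each read by its brightest probe set (mean of all arrays). The test was two-sided, from limma 3.58.1 under R 4.3.3 (lmFit, then eBayes with its trend option), Benjamini-Hochberg adjusted over all genes, with a threshold of 0.05. The fit was checked on simulated data. Probe sets of 1 gene were compared by fitting their difference from the brightest, with the prior variance following the level of the other probe set. Promoters were scanned in Python 3.11.15.

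Members and lists were chosen with earlier results of these data known. Named per class were up to 4 rises and 4 falls, the 2 brightest members and those with probe sets called in opposite directions, and per list of other splicing genes up to 3 rises and 3 falls. Other genes with values were chosen after these were seen. Alternatives were other scalings, a filter on the dimmest 40% of probe sets, other choices of probe set, other variance models, weights per array, a replicate block, a threshold of 0.01, leaving out genes on X and Y, and leaving out each array. The samples were not treated as paired by replicate number. Deviations of same-numbered arrays correlated at 0.0785, -0.0599 and 0.094, which with 3 arrays a group cannot settle whether they were paired.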

Additional observations from a re-analysis of the deposited data

How the results depend on the processing

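Of 449 values of the 25 named genes under alternatives, 410 kept their direction and their side of the threshold, 33 kept the direction but no longer passed, 2 passed newly and 4 changed sign. None of the sign changes touched a gene called in the report: Srsf3 with the mean of probe sets (-0.02), Hnrnpab with the mean of probe sets (0.17, adjusted p = 0.0228) and spike scaling (0.10), and Srsf1 without probe sets that can match several transcripts (-0.07). Spike scaling moved the counts most: 2968 of all genes were higher and 944 lower, and of the members 22 were higher and 6 lower. By class it gave 7 higher in Sf3a and Sf3b, 3 higher and 2 lower in Srsf, and 6 higher and 3 lower in Hnrnp. Quantile normalization left 0 Srsf genes higher, as did eBayes without a trend, which left 1 Hnrnp gene higher. Leaving out probe sets that can match several transcripts also left 1 Hnrnp gene higher, and the mean of probe sets gave 1 Snrp gene lower. At a threshold of 0.01, 1206 of all genes were lower, and of the members 7 were higher, with 0 in Srsf and 0 in Hnrnp. Leaving out 1 array at a time gave 0 to 1 Srsf and 1 to 2 Hnrnp genes higher, 4 to 5 Snrp genes higher and 4 Srsf genes lower. The 16 probe sets that changed unlike the brightest became 7 with eBayes without a trend and 7 with the trend on the mean difference, both chosen after seeing the data, and 9 to 13 without 1 array: 9 without USP7-titled replicate 1 or control replicate 1, and 10 without control replicate 2. With the replicate number as a block the counts stayed at 12 members higher and 11 lower, and over all genes at 2098 higher and 1961 lower. What same-numbered arrays share beyond the number is not known here. The cause of these shifts was not tested. With 3 arrays a group, changes under about the spread of a probe set remain undecided, and no detection call limits the dim values.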
